A study of Mus musculus with 20 samples.

Results

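The 10 genes described here are the TGF-beta ligands Tgfb1, Tgfb2 and Tgfb3, the receptors Tgfbr1, Tgfbr2 and Tgfbr3, the feedback inhibitor Smad7 and the myofibroblast markers Acta2, Tagln and Lrrc15. They were chosen by symbol, and all 10 were found among the 24446 gene symbols of the 3 deposited count tables. Their levels were followed in fibroadipogenic progenitors (FAPs), stromal cells that give rise to fibroblasts and adipocytes in muscle. FAPs of male C57BL/6J mice were sorted fresh from the hindlimb and their messenger RNA was sequenced. The KPC mice had KPCY cells, from a mouse pancreatic tumour line, injected into the pancreas, and control mice had sham surgery. There were 4 KPC and 3 control libraries at day 14, 3 KPC and 3 control libraries at day 21, and 3 KPC and 4 control libraries at day 26. The labels give no age and call the libraries of a group biological replicates, without saying whether a library is 1 mouse or a pool.

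TGF-beta ligands are secreted in a latent complex that is held in the matrix and has to be opened by integrins, proteases or thrombospondin. The active ligand binds the type II receptor (Tgfbr2), which recruits and phosphorylates the type I receptor (Tgfbr1), and Tgfbr1 phosphorylates Smad2 and Smad3. Betaglycan (Tgfbr3) is a coreceptor that presents ligand, Tgfb2 above all, and once shed can hold ligand back. In muscle the pathway is known for driving FAPs towards matrix-producing myofibroblasts, and Acta2 (smooth muscle alpha-actin) and Tagln (transgelin) are the contractile genes by which such cells are usually recognised. Both are also main products of vascular smooth muscle and pericytes.

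A library held between 12944751 and 26434933 counts. Pdgfra, the usual FAP marker, was at 1194 to 1672 CPM (counts scaled to a common library size), and Ly6a, which encodes the SCA-1 of the sort, at 525 to 1465 CPM. Of the markers of cells that the sort was to leave out, Ptprc (CD45) was at 0.0401 to 5.73 CPM, Itga7 at 1.83 to 18.7 CPM and Pecam1 (CD31) at 4.52 to 241 CPM, and Itga7 rose at day 14 and Pecam1 at day 21. On the first principal component, which carried 34.4% of the variance, the 10 controls lay between -35.8 and -13.7. KPC replicate 3 of day 26 lay at -8.67, whereas the other day 26 KPC libraries were at 127 and 106, so day 26 results are given with and without that library. The leading number of the library codes, whose meaning the labels do not give, separates the groups fully at days 14 and 21. At those days a difference tied to that number and a difference tied to the tumour cannot be told apart. Differences of the KPC effect between days share this limit, since each uses day 14 or day 21. At day 26 KPC replicate 3 is coded 226 and the other KPC libraries 227, and the controls are coded 227 or 235.

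Per length of annotated exon, the receptors Tgfbr3 and Tgfbr2 were the most abundant of the 10 transcripts, with means over the 20 libraries of 112 and 90.1 CPM per kilobase (kb). Tgfb3 followed at 34.2 and Tgfb2 at 16.4 CPM per kb. Acta2 (12.6), Tagln (9.48), Tgfbr1 (8.79), Tgfb1 (8.22) and Smad7 (6.73 CPM per kb) lay close together, and Lrrc15 was nearly absent at 0.131 CPM per kb. In day 26 KPC libraries the order began with Tgfbr3 at 188 ± 69.5 CPM per kb, ahead of Tgfbr2 at 77.6 ± 21.5 and Tgfb3 at 27.3 ± 7.30 CPM per kb (SD, n = 3). In day 26 controls Tgfbr2 stood first at 110.4 ± 3.16 CPM per kb, Tgfbr3 came next at 101 ± 3.92 and Tgfb3 after it at 41.1 ± 6.18 CPM per kb (SD, n = 4). Among these controls Tgfb1 (8.67 ± 0.879) and Tgfbr1 (7.30 ± 0.773), and likewise Acta2 (5.69 ± 1.98), Smad7 (4.80 ± 0.795) and Tagln (4.13 ± 1.41 CPM per kb), were neighbours whose SD ranges overlapped. Within each of these control libraries Tgfb1 was nevertheless above Tgfbr1.

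**Figure D1:**
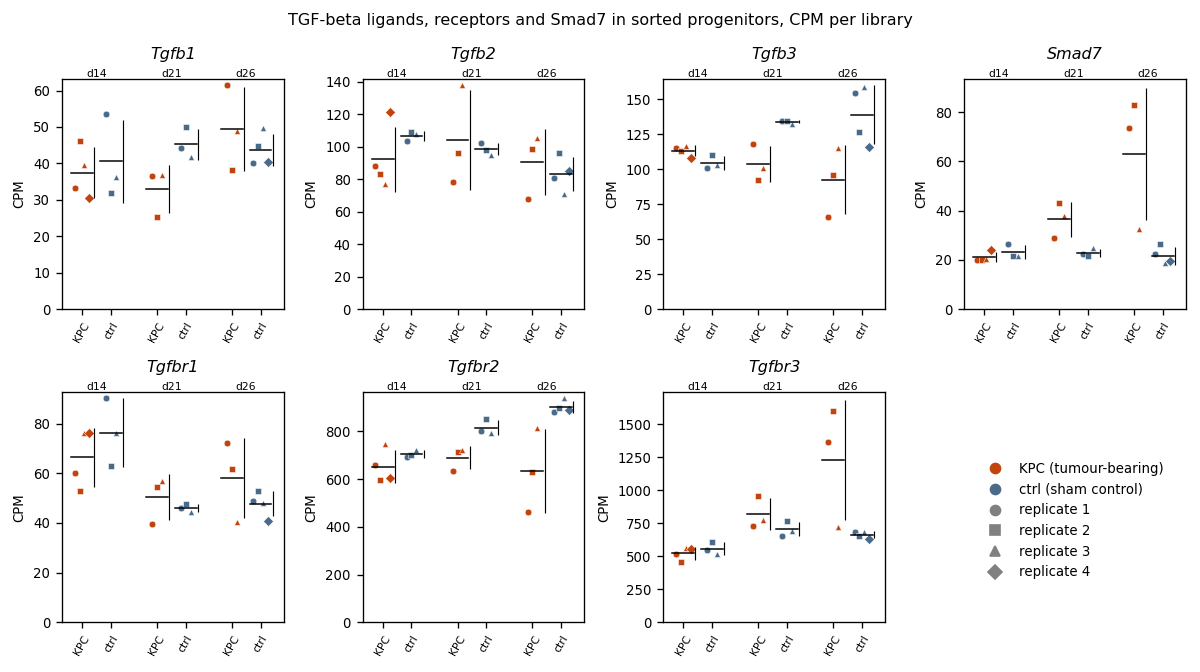
CPM per library of the 3 ligands, Smad7 and the 3 receptors, with KPC left of control (ctrl) at each day; each point is 1 library, the marker shape gives the replicate number, the horizontal line is the group mean and the vertical line beside it ± 1 SD. Smad7 is above all controls in the 3 KPC libraries of day 21 and of day 26, and Tgfb3 and Tgfbr2 are below all controls at both days, while KPC replicate 3 of day 26 (triangle) sits nearest to the controls for Smad7, Tgfb3, Tgfbr2 and Tgfbr3.

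Of the 10 genes, Smad7 was the one called in edgeR's fits of each day's libraries, and it rose at day 21. Smad7 is an inhibitory Smad that TGF-beta signalling itself induces and that blocks Tgfbr1, although cytokine signals through STAT factors also induce it. At day 14 Smad7 had 20.1, 19.8, 20.4 and 24.2 CPM in KPC libraries, against 26.5, 21.6 and 21.5 CPM in controls, and the groups overlapped. At day 21 Smad7 had 29.0, 43.0 and 37.7 CPM in KPC libraries, against 22.3, 21.6 and 24.7 CPM in controls. At day 26 Smad7 had 73.7, 83.0 and 32.4 CPM in KPC libraries, against 22.2, 26.6, 18.6 and 19.4 CPM in controls. At both later days every KPC library lay above every control, and at day 26 KPC replicate 3 was less than halfway to the other 2 KPC libraries.

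The log2 fold change of Smad7, KPC over control, was 0.67 ± 0.16 (SE) at day 21, with an adjusted p of 0.0184 by edgeR's quasi-likelihood test with Benjamini-Hochberg adjustment over all genes. That call was lost when any 1 library other than KPC replicate 1 was left out (adjusted p 0.0549 to 0.0859 in those 5 fits), and in a fit of all 6 groups together (adjusted p 0.117). At day 26 the log2 fold change of Smad7 was 1.54 ± 0.30 with an edgeR adjusted p of 0.0592, and 1.84 without KPC replicate 3 (adjusted p 4.8e-05). In all libraries, DESeq2, limma-voom and the fit of all 6 groups together called Smad7 at day 26. At day 14 its log2 fold change was -0.12 ± 0.14 (edgeR adjusted p 0.766). The KPC effect on Smad7 was larger at day 26 than at day 14 by 1.68 ± 0.32 on the log2 scale (edgeR adjusted p 0.00861), a call that was kept in all 20 fits that left out 1 library.

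Among the receptors, betaglycan was high in 2 of the 3 day 26 KPC libraries. Tgfbr3 (chromosome 5, 107106570 to 107289629, mm10) had 1367, 1599.6 and 722 CPM in day 26 KPC libraries, against 686, 651, 683 and 633 CPM in controls. KPC replicates 1 and 2 stood far above every control and KPC replicate 3 just above them. The log2 fold change of Tgfbr3 was 0.89 ± 0.27 (edgeR adjusted p 0.0815) and 1.15 without KPC replicate 3 (adjusted p 3.2e-04). In all libraries, DESeq2, limma-voom and the fit of all 6 groups together called Tgfbr3 at day 26. At day 21 Tgfbr3 had 729.9, 956 and 777 CPM in KPC libraries, against 658, 765 and 694 CPM in controls, with overlap between the groups (log2 0.21 ± 0.12, edgeR adjusted p 0.302). At day 14 Tgfbr3 averaged 524 ± 48.4 CPM in KPC libraries (SD, n = 4) and 559 ± 47.9 CPM in controls (SD, n = 3), a log2 fold change of -0.08 ± 0.11 (edgeR adjusted p 0.819). The KPC effect on Tgfbr3 was larger at day 26 than at day 14 by 0.99 ± 0.27 on the log2 scale (edgeR adjusted p 0.0237), a call that was lost in 5 of 20 fits that left out 1 library (adjusted p 0.0502 to 0.0918).

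The type II receptor lay lower in KPC libraries at the later days, without a call in edgeR's fits of each day's libraries. In all libraries, limma-voom and the fit of all 6 groups together did call it at day 26. Tgfbr2 (chromosome 9, 116084293 to 116175360) had 462, 631 and 814 CPM in day 26 KPC libraries, against 883, 899, 941 and 891 CPM in controls. At day 21 Tgfbr2 had 636, 714 and 721 CPM in KPC libraries, against 804, 852 and 792 CPM in controls. At both days every KPC library was below every control. The log2 fold changes of Tgfbr2 were -0.25 ± 0.11 at day 21 (edgeR adjusted p 0.150) and -0.50 ± 0.23 at day 26 (edgeR adjusted p 0.156), and without KPC replicate 3 the day 26 value was -0.74 (adjusted p 0.00589). At day 14 Tgfbr2 was at 598 to 746 CPM in KPC libraries and at 692 to 723 CPM in controls, and the groups overlapped. The type I receptor Tgfbr1 (chromosome 4, 47353222 to 47414931), the kinase that passes the signal on, overlapped between the groups at all 3 days. It had 72.2, 61.7 and 40.6 CPM in day 26 KPC libraries, against 49.0, 53.0, 48.0 and 40.8 CPM in controls (log2 0.29 ± 0.20, edgeR adjusted p 0.314), and it was called at day 26 without KPC replicate 3 (log2 0.48, adjusted p 0.0211).

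Within a library, the ratio of Tgfbr3 to Tgfbr2 per exon length does not depend on how libraries are scaled to each other. At day 26 this ratio was 3.70, 3.17 and 1.11 in KPC libraries, against 0.971, 0.907, 0.908 and 0.888 in controls. At day 21 the ratio was 1.44, 1.67 and 1.35 in KPC libraries, against 1.02, 1.12 and 1.10 in controls. The ratio was higher in every KPC library than in every control at both days, whereas at day 14 KPC libraries at 0.946 to 1.15 overlapped controls at 0.899 to 1.09. Tgfbr3 made up 66.8 ± 13.7% of the summed receptor level per length in day 26 KPC libraries (SD, n = 3) and 46.3 ± 0.903% in controls (SD, n = 4). Tgfbr1 was the least abundant receptor in all libraries, at 3.24 ± 0.653% in day 26 KPC libraries (SD, n = 3) and 3.33 ± 0.325% in controls (SD, n = 4).

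**Figure D2:**
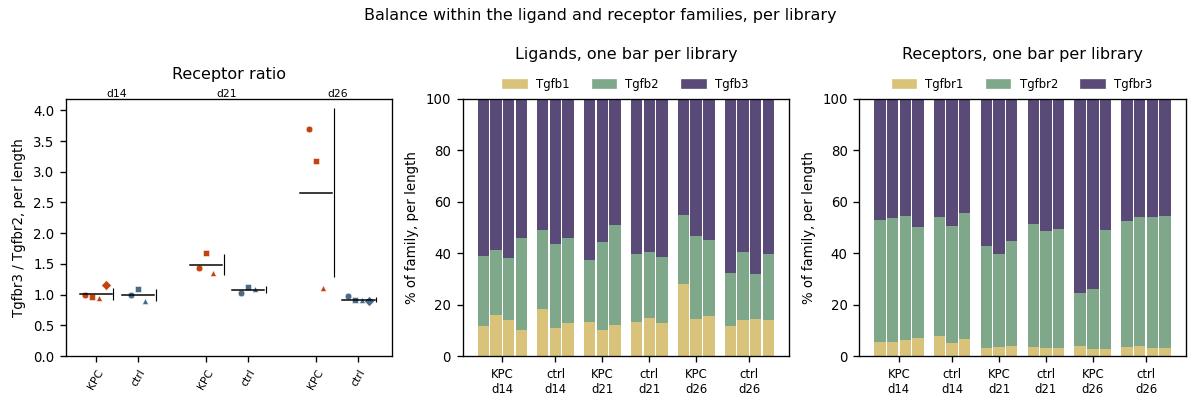
Left, ratio of Tgfbr3 to Tgfbr2 (CPM per kb of exon) in each library, with the group mean as a horizontal line and ± 1 SD as a vertical line; middle and right, share of each ligand and of each receptor in the summed CPM per kb of its family, 1 bar per library, KPC left of control at each day. The ratio reaches 3.70 and 3.17 in day 26 KPC replicates 1 and 2, and the Tgfb3 share of the ligands is smallest, at 45.0%, in day 26 KPC replicate 1.

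Tgfb3 was the most abundant ligand transcript per length, and its share was smaller in day 26 KPC libraries. Tgfb3 (chromosome 12, 86056745 to 86079041) had 66.1, 95.9 and 115 CPM in day 26 KPC libraries, against 154, 127, 159 and 116 CPM in controls. At day 21 Tgfb3 had 118, 92.3 and 101 CPM in KPC libraries, against 135, 134 and 133 CPM in controls. At both days every KPC library was below every control, by less than 1 CPM at day 26 between KPC replicate 3 and control replicate 4. At day 14 Tgfb3 was at 108 to 116 CPM in KPC libraries and 101 to 110.4 CPM in controls. The log2 fold changes of Tgfb3 were 0.13 ± 0.10 at day 14 (edgeR adjusted p 0.610), -0.37 ± 0.11 at day 21 (edgeR adjusted p 0.0515) and -0.58 ± 0.21 at day 26 (edgeR adjusted p 0.109). At day 21 DESeq2 (adjusted p 0.0313), limma-voom (adjusted p 0.0121) and edgeR without KPC replicate 1 (adjusted p 0.00632) called Tgfb3. At day 26 edgeR called it without KPC replicate 3 (log2 -0.80, adjusted p 0.00796). In all libraries, limma-voom and the fit of all 6 groups together called Tgfb3 at day 26. The KPC effect on Tgfb3 was lower at day 26 than at day 14 by a log2 difference of -0.70 ± 0.21 (edgeR adjusted p 0.0352), a call that was lost in 10 of 20 fits that left out 1 library (adjusted p 0.0526 to 0.0816).

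Neither of the other ligands was called at any day in the fits of all libraries. Tgfb1 (chromosome 7, 25687002 to 25705077), the ligand most often tied to fibrosis, had 36.6, 25.3 and 36.8 CPM in day 21 KPC libraries, against 44.1, 49.9 and 41.6 CPM in controls, and the groups did not overlap. Its log2 fold change at day 21 was -0.46 ± 0.16 (edgeR adjusted p 0.0805, and 0.0320 without KPC replicate 1). At day 26 Tgfb1 had 61.4, 38.2 and 48.8 CPM in KPC libraries, against 40.1, 44.7, 49.6 and 40.5 CPM in controls, and the groups overlapped (log2 0.19 ± 0.19, edgeR adjusted p 0.471). At day 14 Tgfb1 was at 30.4 to 46.2 CPM in KPC libraries and 32.0 to 53.5 CPM in controls, again with overlap. Tgfb2 (chromosome 1, 186622792 to 186705989), the ligand that depends most on betaglycan, overlapped between the groups at each day. It spanned 67.7 to 138 CPM over all 20 libraries, and its log2 fold changes were -0.19 ± 0.13, 0.08 ± 0.18 and 0.13 ± 0.18 at days 14, 21 and 26. Of the summed ligand level per length, Tgfb3 made up 51.2 ± 5.36% in day 26 KPC libraries (SD, n = 3) and 63.9 ± 4.61% in controls (SD, n = 4). That sum was 43.4 to 61.9 CPM per kb in day 26 KPC libraries and 57.0 to 69.0 CPM per kb in controls, so the range of the family total overlapped.

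The myofibroblast markers were more variable than the signalling genes. Over the 20 libraries the highest Acta2 level was 28.5 times the lowest, and the highest Tagln level 23.0 times the lowest, against 4.46 times for Smad7 and 3.50 times or less for the 6 ligand and receptor genes. Acta2 (chromosome 19, 34241090 to 34255590) had 23.6, 64.0, 43.5 and 16.6 CPM in day 14 KPC libraries, against 17.1, 9.07 and 3.35 CPM in controls. At day 21 Acta2 had 85.7, 39.0 and 14.0 CPM in KPC libraries, against 20.1, 21.2 and 30.7 CPM in controls. At day 26 Acta2 had 95.2, 11.4 and 9.29 CPM in KPC libraries, against 13.6, 16.0, 6.13 and 14.3 CPM in controls. The groups overlapped at all 3 days, and at day 26 a single KPC library, replicate 1, stood above the controls. The log2 fold changes of Acta2 were 1.92 ± 0.74, 0.94 ± 0.69 and 1.66 ± 0.79 at days 14, 21 and 26, with edgeR adjusted p of 0.332, 0.459 and 0.171. Without KPC replicate 1 the day 26 value was -0.27 and the day 21 value 0.12, whereas without KPC replicate 3 Acta2 was called at day 21 (log2 1.38, adjusted p 0.0418).

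Tagln, which encodes an actin-bundling protein of contractile cells, followed Acta2 from library to library. Tagln (chromosome 9, 45929619 to 45936058) had 15.6, 31.9, 23.3 and 16.0 CPM in day 14 KPC libraries, against 10.4, 6.67 and 3.45 CPM in controls, and the groups did not overlap. At day 21 Tagln had 58.3, 29.1 and 12.3 CPM in KPC libraries, against 13.1, 12.9 and 13.0 CPM in controls. At day 26 Tagln had 79.5, 9.87 and 8.83 CPM in KPC libraries, against 11.6, 9.39, 6.44 and 5.41 CPM in controls. At each of the later days the lowest KPC library lay below at least 1 control. The log2 fold changes of Tagln were 1.68 ± 0.40, 1.36 ± 0.54 and 2.02 ± 0.76 at days 14, 21 and 26, with edgeR adjusted p of 0.0941, 0.177 and 0.114. At day 14 DESeq2 (adjusted p 9.5e-05) and limma-voom (adjusted p 0.0471) called Tagln, and edgeR did so without control replicate 1 (adjusted p 0.0292). Leaving out KPC replicate 1 brought the day 26 value of Tagln to 0.19 and the day 21 value to 0.65, and leaving out KPC replicate 3 gave a call at day 21 (log2 1.76, adjusted p 0.00335) and at day 26 (log2 2.46, adjusted p 0.0379). In all libraries, the fit of all 6 groups together called Tagln at day 26. Exons of Tagln share 108 bases with Pcsk7 on the other strand. The use of strand in the counting is not given in the sources used here.

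Lrrc15 (chromosome 16, 30269302 to 30283256), a surface protein of myofibroblasts in tumour stroma, was near the limit of detection. At day 14 it had 10, 11, 21 and 17 counts in KPC libraries, against 15, 12 and 20 counts in controls. At day 21 Lrrc15 had 15, 6 and 4 counts in KPC libraries, against 18, 5 and 29 counts in controls. At day 26 it had 7, 0 and 1 counts in KPC libraries, against 13, 5, 7 and 60 counts in controls. The groups overlapped at each day, and control replicate 4 held 60 of the 85 counts of the day 26 controls. The count of 0 in KPC replicate 2 allows up to 0.176 CPM (3 counts), a limit that covers counting error only, and Lrrc15 did not pass the filter on low counts at day 26. Its log2 fold changes were -0.10 ± 0.60 at day 14 (edgeR adjusted p 0.962) and -0.65 ± 0.89 at day 21 (edgeR adjusted p 0.692).

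The promoter of Acta2 is shown because it holds the elements by which serum response factor (SRF) and its partners act on contractile genes. The sequences are from RefSeq on GRCm38.p6, read 5′ to 3′ on the strand of the gene, and capitals mark the match. The first pair holds CArG-like boxes, that is, the SRF-binding CArG box with 1 mismatch allowed in its 6-base A and T core, and the next holds GGAATG, the core of the MCAT element bound by TEAD factors.
Acta2, chr19:34255438-34255467: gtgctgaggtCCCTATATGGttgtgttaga
Acta2, chr19:34255388-34255417: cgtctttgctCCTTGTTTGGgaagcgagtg
Acta2, chr19:34255502-34255531: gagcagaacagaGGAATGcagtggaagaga
Srf, chr17:46556225-46556254: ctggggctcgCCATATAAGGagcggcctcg
Myl9, chr2:156775293-156775322: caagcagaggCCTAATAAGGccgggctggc
Cnn2, chr10:79988534-79988563: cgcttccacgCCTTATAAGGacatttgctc
The Srf, Myl9 and Cnn2 windows carry an exact CArG box and are set beside the Acta2 boxes for comparison.
The searched window was the 250 bases before the start. Of 32851 RefSeq promoters 1.47% hold an exact CArG box, 8.59% hold one with a core mismatch allowed and 12.6% hold GGAATG, searched on both strands. The table has promoters for 6 of the 10 genes, and in these 6 no exact box was found, while Acta2 and Tgfbr2 hold boxes with a mismatch. Among the 26 genes of the contractile list 23 have a promoter in it, and 4 of these hold an exact box. The Smad-binding letters CAGAC, searched on both strands, are in the promoters of Acta2, Tgfb2, Tgfbr1 and Tgfbr2, and in 42.2% of all promoters.

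Acta2 and Tagln tracked genes of vascular mural and endothelial cells. Over the 20 libraries the genes whose log2 CPM correlated best with Acta2, among 11473 genes compared, were Myh11 (Pearson r 0.944), the smooth muscle myosin, then Tagln (0.942) and Lmod1 (0.928), which nucleates actin filaments in smooth muscle. For Tagln they were Mcam (0.958), which marks pericytes and endothelium, Arhgap27 (0.956) and the endothelial gene Vwf (0.950). These values describe libraries that share days, groups and depth, and carry no test. Myh11 had 90.0, 9.11 and 7.27 CPM in day 26 KPC libraries, against 14.0, 12.9, 8.80 and 7.15 CPM in controls, and was thus high in the same single library as Acta2.

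Endothelial markers and some of the mural markers differed between the groups. Pecam1 had 46.1, 75.4, 55.4 and 46.0 CPM in day 14 KPC libraries, against 24.7, 16.5 and 8.10 CPM in controls. At day 21 Pecam1 had 144, 85.9 and 38.4 CPM in KPC libraries, against 19.4, 19.9 and 15.2 CPM in controls, and it rose (log2 2.30 ± 0.51, edgeR adjusted p 0.0463). At day 26 it had 241, 27.5 and 12.6 CPM in KPC libraries, against 12.9, 16.1, 4.52 and 7.30 CPM in controls. The library numbered KPC replicate 1, a separate library at each day, was the highest for Pecam1, Acta2 and Tagln at day 21 and at day 26. This was not particular to vessel genes. At each of these days KPC replicate 1 was also highest for the summed macrophage, myofibre, satellite cell and glial markers, though not for the tenocyte markers. Of the 12 endothelial markers, 2 rose at day 14, 8 rose and 1 (Tek) fell at day 21, and none was called at day 26, against 1.12%, 12.5% and 0.0% of all genes called at days 14, 21 and 26. Their summed level was 567 to 749 CPM in KPC libraries and 416 to 494 CPM in controls at day 14, 526 to 1027 CPM in KPC libraries and 558 to 593 CPM in controls at day 21, and 338 to 1139 CPM in KPC libraries and 390.1 to 563 CPM in controls at day 26. None of the 12 was at 0 in any library. By the fitted log2 fold change 11 of the 12 were higher in KPC at each day. Their median was 1.65, 1.90 and 2.46 at days 14, 21 and 26, against 0.01, 0.01 and -0.0029 for all genes. A sum weighs abundant markers most, so it can move less than the single markers.

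Of the 9 mural markers, 1 rose at day 14 (Notch3, log2 0.96 ± 0.21, edgeR adjusted p 0.0418), Mcam and Abcc9 rose and Cspg4 fell at day 21, and none was called at day 26, beside the same shares of all genes (1.12%, 12.5% and 0.0%). Rgs5, a pericyte gene that was not called at any day, had 62.0, 42.3 and 15.2 CPM in day 21 KPC libraries, against 11.7, 6.55 and 6.90 CPM in controls. At day 26 Rgs5 had 76.6, 8.64 and 6.46 CPM in KPC libraries, against 4.55, 7.50, 2.91 and 2.90 CPM in controls. KPC replicate 1 was again the highest at each of these days. Not all mural markers went this way. By the fitted log2 fold change 6 of 8 tested were higher in KPC at day 21 and 5 of 8 at day 26. The summed mural markers were at 629.6 to 698 CPM in KPC libraries and 439 to 583 CPM in controls at day 14, 607 to 744 CPM in KPC libraries and 623 to 709 CPM in controls at day 21, and 495 to 735 CPM in KPC libraries and 532 to 678 CPM in controls at day 26. Pdgfrb, which FAPs also express, makes up most of that sum, and Higd1b was the one mural marker at 0 in some libraries. The ranges of that sum overlapped at days 21 and 26, while at day 14 every KPC library lay above every control. In bulk libraries fewer cells of a type and less RNA per cell cannot be told apart.

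Markers of other cell types also differed in level between the groups. Of all genes, 1.12%, 12.5% and 0.0% were called at days 14, 21 and 26. All 11 tested macrophage markers were higher in KPC at day 26 by the fitted log2 fold change (median 2.66) and none was called. Their summed level was 408, 43.1 and 25.8 CPM in day 26 KPC libraries and 18.4 to 26.7 CPM in controls, so that KPC replicate 1 was far above the rest and KPC replicate 3 within the range of controls. At day 21 Cd14 was the 1 called macrophage marker of 9 and rose, with sums of 22.3 to 89.7 CPM in KPC libraries and 15.6 to 26.6 CPM in controls, and at day 14 Cx3cr1 was the 1 called of 10 and fell. The myofibre markers summed to 75.9 to 246 CPM in day 26 KPC libraries and 32.4 to 102 CPM in controls, with none called at any day. The glial markers summed to 19.0 to 68.8 CPM in day 26 KPC libraries and 19.1 to 33.2 CPM in controls, with Cdh19 called higher at day 21 (1 of 5 tested). The satellite cell markers summed to 3.68 to 22.9 CPM in day 26 KPC libraries and 3.08 to 4.83 CPM in controls, and the tenocyte markers to 403 to 1061 CPM in KPC libraries and 363 to 1108 CPM in controls. At day 14 the glial sum was 50.2 to 104 CPM in KPC libraries and 17.7 to 33.7 CPM in controls. The satellite cell sum was then 8.44 to 20.9 CPM in KPC libraries and 3.92 to 6.51 CPM in controls. For both, every day 14 KPC library lay above every control, while the macrophage, myofibre and tenocyte sums overlapped. By the fitted log2 fold change, 8 of 10 tested macrophage, 9 of 9 myofibre and 6 of 6 tenocyte markers were higher in KPC at day 14. The tenocyte median was 1.14 at day 14 and -1.84 at day 26, when 2 of 5 tested were higher, with none called at either day. Fcgr1 among the macrophage markers, Gfra3 among the glial markers and Calcr, Myf5 and Myod1 among the satellite cell markers were at 0 in most libraries.

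The progenitor markers themselves summed to 37013, 64182 and 90247 CPM in day 26 KPC libraries, against 76698 to 89735 CPM in controls. KPC replicates 1 and 2, the libraries in which Smad7 and Tgfbr3 were highest, were thus below every control in this sum. Pdgfra and Ly6a, whose ranges over all libraries are given above, make up a small part of the sum, so it mostly reflects other, more abundant genes. At day 21 Dcn and Osr1 rose and Cd34 and Pi16 fell, 4 of 9 tested, against 12.5% of all genes called. At day 14 Dpp4 fell, 1 of 9 tested, against 1.12% of all genes. The part of any of these cell types in the values of the 10 genes was not tested.

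**Figure D3:**
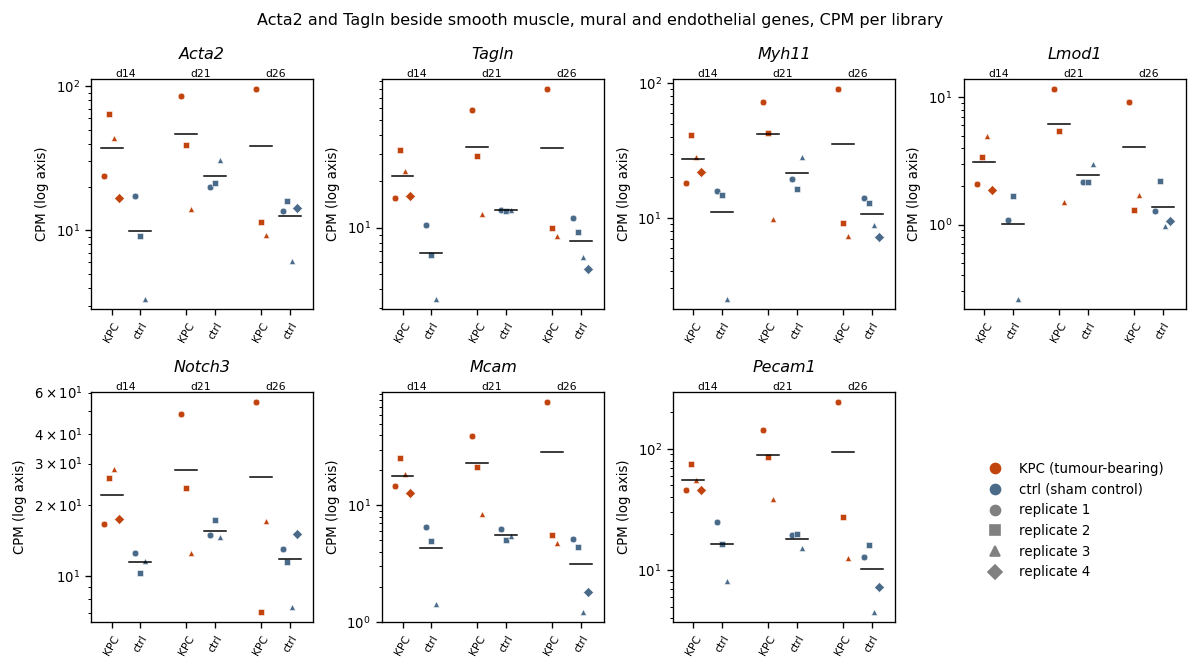
CPM per library on log axes of Acta2 and Tagln beside the smooth muscle genes Myh11 and Lmod1, the mural genes Notch3 and Mcam and the endothelial gene Pecam1, with KPC left of control at each day; points are libraries, shapes are replicate numbers and lines are group means. KPC replicate 1 (circle) is the highest library of day 21 and of day 26 in all 7 panels.

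At day 14 none of the 10 genes was called by edgeR, where 1.12% of all 13344 genes tested were called; 2 of the 10, Acta2 and Tagln, had an unadjusted p under 0.05, against 14.3% of all genes. DESeq2 called 1 of the 10 and 4.5% of all genes, and limma-voom 1 and 4.86%. The groups did not overlap for 1 of the 10 (Tagln), against 13.3% of all genes. At day 21 edgeR called 1 of the 10 (Smad7), against 12.5% of 13154 genes, and 5 had an unadjusted p under 0.05, against 27.7% of all genes. DESeq2 called 2 of the 10 and 17.2% of all genes, and limma-voom 2 and 17.7%. The groups did not overlap for 4 of the 10 (Smad7, Tgfb1, Tgfb3 and Tgfbr2), against 33.1% of all genes. At day 26 edgeR called none of the 9 that passed the filter, as it called 0.0% of all 13157 genes, although 4508 (34.3%) had an unadjusted p under 0.05, among them 4 of the 9. DESeq2 called 2 of the 9 (Smad7 and Tgfbr3) and 21.6% of all genes, and limma-voom 4 (also Tgfb3 and Tgfbr2) and 34.3%. EdgeR in the 6-group fit, which tested all 10, called 5 of the 10 (these 4 and Tagln) and 34.6%. The groups did not overlap at day 26 for 4 (Smad7, Tgfbr3, Tgfb3 and Tgfbr2), against 29.1% of all genes. Without KPC replicate 3, edgeR called 6 of the 10 at day 26, against 51.6% of all genes. Among the libraries coded 227 alone, 2 KPC and 3 control libraries, edgeR called 5 of the 10, against 47.1% of all genes, with log2 fold changes of 1.81 for Smad7, 1.14 for Tgfbr3, -0.86 for Tgfb3, -0.74 for Tgfbr2 and 0.43 for Tgfbr1 (adjusted p 3.6e-04 to 0.0315), and not Tagln (2.34) or Acta2 (2.22). DESeq2 gave no adjusted p for Acta2 and Tagln at day 26. At each day the share of the 10 genes that was called or lay apart was thus near that of all genes. The median log2 fold change of those that passed was -0.10, 0.10 and 0.29 at days 14, 21 and 26, and that of all genes 0.01, 0.01 and 0.00.

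The KPC effect differed between days 26 and 14 for 3 of the 10 genes (Smad7, Tgfbr3 and Tgfb3), against 14.3% of all genes, and the same 3 had an unadjusted p under 0.05, against 33.1%. Between days 21 and 14 edgeR called no difference for the 10 genes, against 0.644% of all genes, and 2 had an unadjusted p under 0.05, against 15.1%. Between days 26 and 21 it called none either, as it called 0.0% of all genes, and 3 of the 10 had an unadjusted p under 0.05, against 12.9%. Without day 26 KPC replicate 3, 2 of the 10 differed between days 26 and 21 (Smad7 and Tgfbr3), against 21.9% of all genes. DESeq2 and limma-voom were not run on these differences. Each difference uses day 14 or day 21, where the code number separates the groups fully, and shares that limit.

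**Figure D4:**
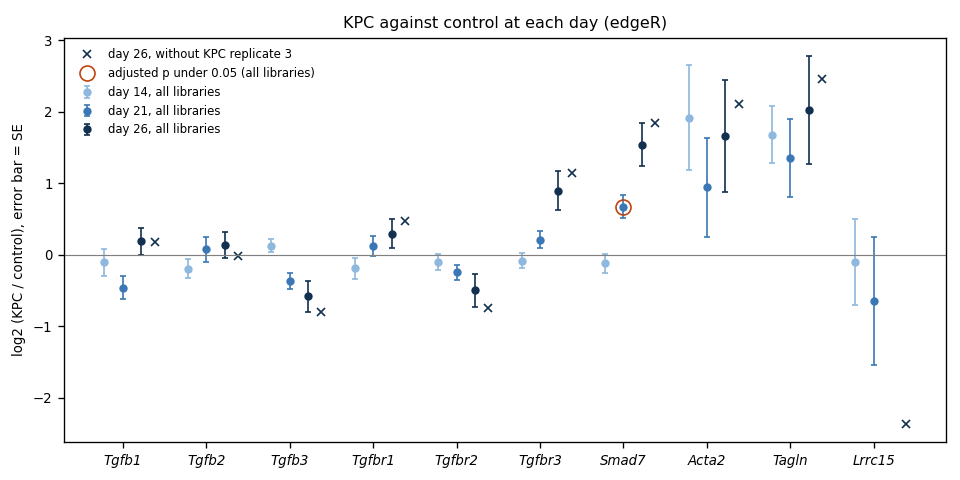
Log2 fold change, KPC over control, of the 10 genes at days 14, 21 and 26 in edgeR, with error bars of ± 1 SE; a ring marks an adjusted p under 0.05 and crosses give day 26 without KPC replicate 3, with no error bar. Smad7 at day 21 is the 1 ringed value, and the bars of Acta2, Tagln and Lrrc15 are the longest; Lrrc15 was tested at day 26 in the fit without KPC replicate 3.

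Between genes, Smad7 and Tgfbr3 varied together over the 20 libraries (Pearson r 0.905, and 0.662 without the day 26 KPC libraries), as did Tgfb3 and Tgfbr2 (0.811, and 0.666). Acta2 and Tagln had little relation to Smad7 (0.242 and 0.390). The gene most like Smad7 was Stat3 (0.985, and 0.952 without the day 26 KPC libraries), the transcription factor of cytokine signalling, followed by Glul (0.975) and Ip6k2 (0.971). Those most like Tgfb3 were Dcakd (0.930), C1qtnf1 (0.930) and Kcp (0.922), and the one most like Tgfbr3 was Wbp1l (0.976). Lrrc15 had no close partner, with its best value at 0.756 (Ccng1), which was 0.425 without the day 26 KPC libraries. All of these are descriptions across libraries that share groups and days.

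The rest of the pathway was followed through 4 lists. In the list of the latent complex and ligand activation, 2 of 17 tested genes rose and 7 fell at day 21, when 12.5% of all genes were called. Thbs1, thrombospondin-1, which opens the latent complex, had 368, 819 and 987 CPM in KPC libraries, against 168, 152 and 151 CPM in controls (log2 2.20 ± 0.35, edgeR adjusted p 0.0120). The matrix protease gene Mmp14 rose as well (log2 0.54 ± 0.13). Fbn1, the fibrillin that anchors the latent complex, fell, with 3023, 1906 and 2873 CPM in KPC libraries and 7026, 7295 and 7369.7 CPM in controls (log2 -1.48 ± 0.17, edgeR adjusted p 2.4e-04). Ltbp4 (log2 -0.67 ± 0.12) and Ltbp3, which bind latent TGF-beta, and Itgav, Itgb3 (-0.74 ± 0.14) and Itgb5, integrin chains that bind it, fell too, as did Emilin1. Of the 17 tested genes, 2 had every KPC library above every control and 9 had every one below. Of all genes, 33.1% had no overlap between the groups at day 21. The list's median log2 fold change was -0.41, against 0.01 for all genes.

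Among the signal transducers and inhibitors, 2 of 22 rose and 4 fell at day 21, against 12.5% of all genes called. Bambi, a decoy receptor, rose, with 15.8, 13.1 and 14.7 CPM in KPC libraries and 5.67, 6.74 and 6.74 CPM in controls (log2 1.18 ± 0.21, edgeR adjusted p 0.00364). Tgif1, a corepressor of Smad complexes, rose by a log2 of 1.25 ± 0.30 (edgeR adjusted p 0.0269). The Smad corepressor gene Ski (log2 -0.54 ± 0.12, edgeR adjusted p 0.0112) and Smurf1 (-0.42 ± 0.11), a ubiquitin ligase that removes the receptors, fell, as did Fkbp1a (-0.36 ± 0.10) and Acvrl1. Both directions thus include inhibitors of the pathway. Smad2, Smad4 and Smad6 were not called, with log2 values of -0.30 ± 0.13, 0.27 ± 0.12 and -0.40 ± 0.23, and neither was Smad3. Smad4 was called higher at day 21 without KPC replicate 1, when 19.7% of all genes were called. It was also called higher at day 26 without KPC replicate 3, when 51.6% of all genes were. The list's median was -0.06.

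The TGF-beta response genes split, with 3 of 20 up and 5 down at day 21, against 12.5% of all genes called. Junb, an AP-1 gene, had 2094, 1745 and 1689 CPM in KPC libraries, against 622, 667 and 526 CPM in controls (log2 1.60 ± 0.13, edgeR adjusted p 3.0e-05), and its exons overlap Prdx2 in the annotation. Lox, which crosslinks collagen, also rose by a log2 of 1.97 ± 0.38 (edgeR adjusted p 0.0258). The 5 that fell were the fibrillar collagen genes Col1a1, Col1a2, Col3a1 and Col5a1 and the fibronectin gene Fn1. Col1a1 had 5609.6, 3471 and 3869 CPM in KPC libraries, against 9989.7, 9005 and 11524 CPM in controls (log2 -1.24 ± 0.18, edgeR adjusted p 0.00142). Col1a2 fell by a log2 of -0.98 ± 0.15 and Fn1, whose exons overlap Apol7d, by -0.97 ± 0.17. Genes of the same list thus moved in both directions, with a list median of 0.06.

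In the contractile and SRF list none of 24 tested genes rose and 6 fell at day 21, against 12.5% of all genes called (839 up and 804 down). Cnn2 (log2 -1.06 ± 0.18, edgeR adjusted p 0.00354), a calponin of non-muscle cells, had 22.7, 13.9 and 15.3 CPM in KPC libraries, against 36.9, 36.7 and 34.6 CPM in controls. Tpm4 (-0.59 ± 0.11) and Myh10 (-0.81 ± 0.15), the non-muscle tropomyosin and myosin genes, fell too, with Smtn, Pdlim7 and Zyx. The smooth muscle genes Myh11 (log2 0.96 ± 0.75, edgeR adjusted p 0.486) and Lmod1 (1.33 ± 0.60, edgeR adjusted p 0.183) were not called. At day 14 when 1.12% of all genes were called, the 1 call in all 4 lists was Zyx, a focal adhesion gene whose exons overlap Epha1, which fell, with 239, 270.2, 296 and 267 CPM in KPC libraries and 413, 344 and 410.3 CPM in controls (log2 -0.52 ± 0.11, edgeR adjusted p 0.0392).

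At day 26 edgeR called no gene of the 4 lists in all libraries. An unadjusted edgeR p under 0.05 was found for 7 of 18 tested genes of ligand activation and 7 of 22 transducers. The response genes had 7 of 19 and the contractile genes 3 of 24, against 34.3% of all genes. Thbs1 had 4524, 3445 and 424 CPM in KPC libraries, against 179, 183, 179 and 179 CPM in controls (log2 3.97 ± 0.67, edgeR adjusted p 0.0592). For Thbs1, KPC replicate 3 lay above the controls and far below the other KPC libraries. Without KPC replicate 3 the ligand activation list had 5 of 18 genes up and 9 down, the transducers 6 and 7 of 22, the response genes 4 and 7 of 19, and the contractile genes 5 and 9 of 24, against 51.6% of all genes called. At day 21 without KPC replicate 1 the corresponding counts were 2 and 7, 4 and 6, 6 and 6, and 0 and 8, against 19.7% of all genes called.

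**Figure D5:**
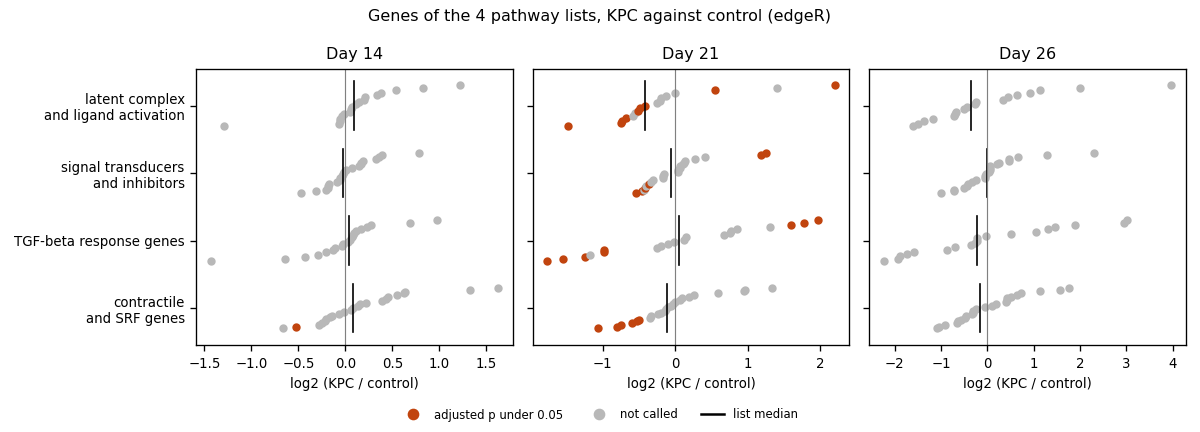
Log2 fold change, KPC over control, of each tested gene of the 4 pathway lists at days 14, 21 and 26 in edgeR, each panel with its own horizontal scale; red points have an adjusted p under 0.05 and the black line is the list's median. At day 21 the called genes lie on both sides of 0 in 3 lists and below 0 in the contractile list, and at day 26 no point is red although the spread is wider.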

How the data were processed

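The authors deposited raw counts per gene symbol in 1 table per day, and the whole numbers in the tables bear that unit out. Per the submitters' processing notes, bcl2fastq 2.20, Bowtie, STAR, DESeq2 1.36.0, R 4.2.1 and build mm10 were used. Which program counted, with which annotation and strand setting, is not given in the sources used here. Per the labels' protocols, live CD31-, CD45- and α7-integrin-negative, SCA-1-positive nucleated cells were sorted, RNA had an integrity number of at least 7, and stranded mRNA libraries were read as pairs of 59 bases. No column was left unmatched.

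From these counts, KPC and control libraries of each day were compared with edgeR 4.0.16 in R 4.3.3 (TMM scaling, filterByExpr at its settings of 10 counts per library and 15 in total, robust quasi-likelihood fit, 2-sided, Benjamini-Hochberg over all genes tested), and an adjusted p under 0.05 is a call. Differences between days are contrasts in 1 fit of all 6 groups. Standard errors are the absolute log2 fold change over the square root of F. CPM use TMM over all 20 libraries, and levels per length divide CPM by GENCODE vM21 exon length. Gene coordinates are from the same annotation, on mm10 and counted from 1. Correlations used log2 CPM with a prior count of 2. Alternatives were limma-voom with quality weights (limma 3.58.1), DESeq2 1.42.0, other scalings, no filter, a replicate block and leaving out each library. The test was checked on simulated counts. Replicate numbers did not pair KPC with control libraries, and p-values measure the spread between libraries. Named are all 10 genes, of each list up to 3 called genes a direction by smallest p, and where none was called the gene with the smallest p. One gene that this rule names is not reported here. Other called members, not-called genes set beside them and the vessel genes were named after their values were seen. The 10 genes and all lists were chosen with earlier results of these data known. 3 list genes were matched through an older name.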

Additional observations from a re-analysis of the deposited data

Results flagged for a closer look

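Smad7 in day 14 KPC libraries held 1 library, replicate 4, that stood apart from the other 3, at 24.2 CPM against 19.8 to 20.4 CPM. Of 20 groups of 4 libraries examined this was the 1 that met the threshold, and chance flags about 1 in 20. That library is also the 1 day 14 KPC library with another leading number in its code. Its part in the value was not tested.

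The KPC effect differed between days 26 and 14 for 3 of the 10 genes in edgeR. At day 14 the code number separates the groups fully, so its part in these differences and that of the tumour cannot be told apart. The difference was 1.68 on the log2 scale for Smad7, with every one of the 3 KPC libraries above all controls at day 26. It was 0.99 for Tgfbr3, also with 3 of 3 KPC libraries above all controls at day 26, and this call was lost in 5 of 20 fits that left out 1 library (without day 14 control replicate 1 or 2, day 14 KPC replicate 2, or day 26 KPC replicate 1 or 2), with adjusted p of 0.0502 to 0.0918. It was -0.70 for Tgfb3, with 3 of 3 KPC libraries below all controls at day 26, and this call was lost in 10 of 20 such fits (each of the 3 day 14 controls, day 14 KPC replicates 1 to 3, day 26 control replicates 1 and 3, and day 26 KPC replicates 1 and 2), with adjusted p of 0.0526 to 0.0816.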

How the results depend on the processing

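Of 1065 comparisons of 59 log2 values of the 10 genes with another setting, 981 kept direction and call, 21 lost the call, 37 gained it and 26 turned direction. Depth limits Lrrc15, and 1 library decides much at day 26. Where values change, the cause was not tested.

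All genes called by edgeR at day 14 (149) became 278 with no filter, 2 in the 6-group fit, 600 in DESeq2 and 649 in limma-voom, and ranged from 40 to 255 when 1 library was left out. The 10 genes then had 0 to 1 calls, and 1 in DESeq2 and in limma-voom. At day 21 the 1643 calls became 436 in the 6-group fit and ranged from 717 to 2644 without 1 library. The 10 genes had 0 to 3 calls without 1 library, 2 with no filter, 2 in DESeq2, 2 in limma-voom and 0 in the 6-group fit. Scaling by library size alone gave 1058 higher and 613 lower calls at day 21, against 839 and 804 with TMM. At day 26 the 0 calls became 4889 in the 6-group fit, 2838 in DESeq2, 4519 in limma-voom and 6287 among the libraries coded 227 alone (a comparison added after seeing the data), with 5, 2, 4 and 5 of the 10 genes called. They ranged from 0 to 6972 (0 to 6 of the 10 genes) without 1 library.

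Without 1 library, called differences between days 21 and 14 ranged from 24 to 956 (0 to 1 of the 10 genes), between days 26 and 14 from 466 to 5900 (1 to 5), and between days 26 and 21 from 0 to 3201 (0 to 2), with 1 call by library size alone. Called genes of the lists at day 26 without KPC replicate 3, against 0, were 14 for ligand activation, 13 for transducers, 11 for response genes and 14 for contractile genes, and at day 21 without KPC replicate 1 the transducers had 10, against 6.

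With replicate number as a block, 361 genes were called at day 14, 1545 at day 21 and 0 at day 26, and Tgfb1 at day 14 turned to 0.0099. Same-numbered libraries deviated together with a correlation of -0.115 to 0.147, so the numbers show no pairing.

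Direction turned without 1 library in these ranges of log2 values. At day 14 Tgfb1 spanned -0.26 to 0.14 and Lrrc15 -0.60 to 0.10. At day 21 Tgfb2 spanned -0.18 to 0.24. At day 26 Tgfb1 spanned -0.0019 to 0.36, Tgfb2 -0.015 to 0.30 and Acta2 -0.27 to 2.11. Between days 21 and 14 Tagln spanned -1.02 to 0.094 and Lrrc15 -1.22 to 0.016. Between days 26 and 14 Acta2 spanned -2.16 to 0.21 and Tagln -1.46 to 0.80. Between days 26 and 21 Tgfb2 spanned -0.10 to 0.30, Tgfbr1 -0.027 to 0.36, Acta2 -1.22 to 1.55 and Tagln -1.16 to 1.39.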
